A study of Rattus norvegicus with 96 samples.

Results

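The comparison described here was that of nicotine (NIC) against saline (SAL) rats within each of 3 brain regions, in a model that held the cohort constant, and it asked which genes differed in the same direction in both cohorts. The 2 cohorts were the 2 "box" codes in the library names, and box and sex were the same split: all rats of box 1 were male and all rats of box 3 were female, so that cohort and sex cannot be told apart. Of the 96 libraries of the series, 94 entered: 31 from the ventral tegmental area (VTA), 31 from the nucleus accumbens (NAc) core and 32 from the NAc shell. A male VTA SAL library, 1 of a pair from the same rat, and a female NAc core NIC library were left out.

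The rats were F1 offspring of the inbred strains F344 and BN, from both directions of the cross, and were used for the sensitization (SST) experiment. The NIC rats were given 0.4 mg/kg of nicotine (base) on each of 4 days and the SAL rats 1.0 ml/kg of saline on the same schedule. Tissue was taken on day 17. Each cohort held 8 NIC and 8 SAL rats, of which 7 gave a used library in the male SAL group of the VTA and in the female NIC group of the NAc core. The regions were dissected by hand, and 30 rats gave a library in all 3 regions. Bulk RNA was measured, so fewer cells of a type and less RNA per cell cannot be told apart in any value below.

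Nicotine opens nicotinic acetylcholine receptors, ligand-gated cation channels, on dopaminergic neurons of the VTA and on the axons that reach them. These neurons project to the NAc, whose core and shell consist mainly of GABAergic striatal projection neurons carrying the dopamine receptors Drd1 or Drd2. Repeated exposure is known to change this circuit in ways that outlast the drug, and sensitization is the stronger behavioural response on re-exposure.

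The libraries held between 15868529 and 27736905 estimated counts, and 16879 genes were tested in each region. In 1 library per region the markers went against the label. Female NIC 2 of the VTA had a summed level of the dopaminergic neuron markers of 135 CPM, the count scaled to the size of the library, against 1142 to 3042 in the other VTA libraries, and a choroid plexus marker sum of 2711, against 7.11 to 928. Male SAL 1 had a striatal projection neuron marker sum of 366 in the NAc core, against 681 to 5076 in the others, and of 307 in the NAc shell, against 1304 to 3623, where its cortical projection neuron marker sum was the highest (3046, against 417 to 2076). These libraries stayed in the comparison, and values without them are given where a result rested on them. In the other libraries the dopaminergic and striatal markers were present in the regions where the labels placed them.

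**Figure D1:**
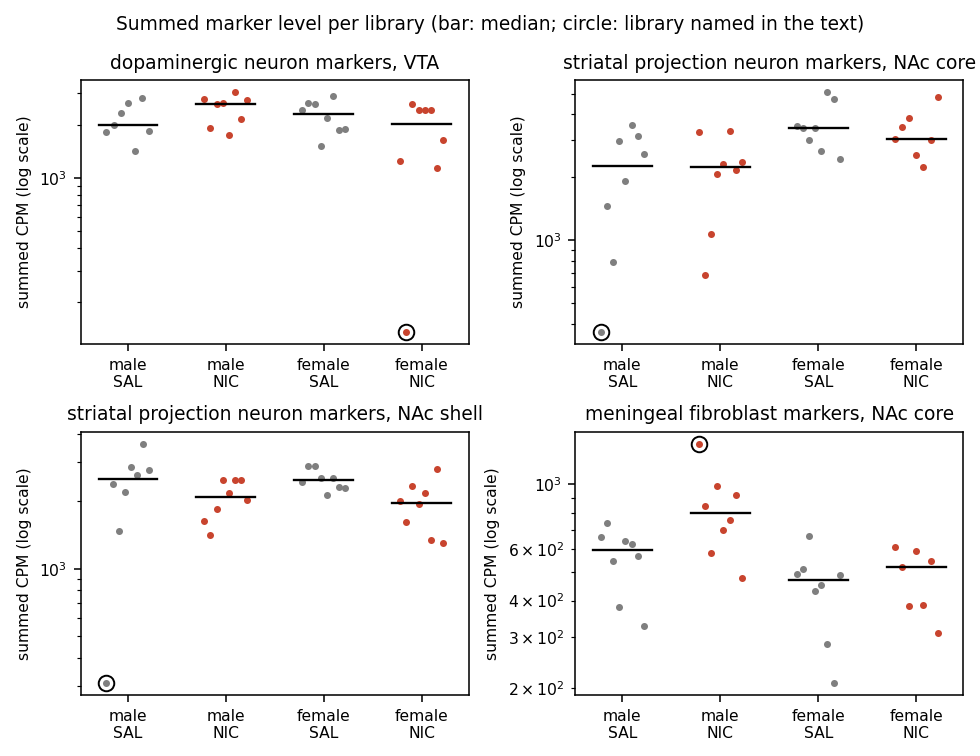
Summed CPM of marker genes (y axis, log scale) in each library, by sex and treatment (x axis), for the dopaminergic neuron markers in VTA, the striatal projection neuron markers in both parts of the NAc, and the meningeal fibroblast markers in NAc core; bars are group medians and circles mark the libraries named in the text. Female NIC 2 of the VTA at 135 and male SAL 1 of the NAc shell at 307 lie far below all other libraries, and male NIC 9 of the NAc core is the highest for the meningeal markers at 1379.

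At an adjusted p under 0.05 (edgeR quasi-likelihood test, Benjamini-Hochberg over all genes tested), 1 gene differed between NIC and SAL in the same direction in both cohorts, in 1 region: Rasl10b in the NAc core, which was 0.00592% of the genes tested there. No gene passed in the VTA or the NAc shell, which was 0% in each. At an unadjusted p under 0.05, the threshold the study used, 574 genes of the VTA (3.4%), 1330 of the NAc core (7.88%) and 492 of the NAc shell (2.91%) differed in the same direction in both cohorts. Counted whatever their signs, 3.53%, 8.17% and 3.07% of genes passed that threshold, which is below its nominal 5% in VTA and NAc shell, so the genes named from it are given as those with the lowest p-values and not as a list of changed genes. DESeq2 in place of edgeR gave 587, 1377 and 496 genes at the same threshold, and 2, 1 and 0 after adjustment.

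The differences were small. Among the genes common to both cohorts the median size of the log2 fold change was 0.20 in VTA, 0.19 in the core and 0.18 in the shell, and of those with a mean of at least 1 CPM only 5, 5 and 1 exceeded 2-fold. The median standard error of a log2 fold change at this level of expression was 0.0691 in VTA, 0.0649 in the core and 0.0702 in the shell, which gave a median 95% interval of ±0.142, ±0.133 and ±0.144. A change of less than about this size in a typical gene would therefore not pass the unadjusted threshold. The limit after adjustment was higher. Ginm1 in the NAc core, at 0.19 in males and 0.20 in females, had an adjusted p of 0.271 in edgeR.

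The cohorts did not move together across the transcriptome. Of all genes tested, the log2 fold change had the same sign in males and females for 42.1% in VTA (22.6% higher and 19.4% lower in NIC), 48.5% in the core (24.9% and 23.6%) and 42.8% in the shell (20.4% and 22.4%). Genes with an unadjusted p under 0.05 within each cohort separately were fewer in the same direction than in opposite directions in every region: 8 against 78 in VTA (0.0474% and 0.462% of genes tested), 38 against 44 in NAc core (0.225% and 0.261%) and 12 against 42 in NAc shell (0.0711% and 0.249%). That the common genes had the same sign in both cohorts follows from how they were chosen and is not separate evidence: of the genes past the unadjusted threshold, 22 in VTA, 49 in the core and 26 in the shell had opposite signs.

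**Figure D2:**
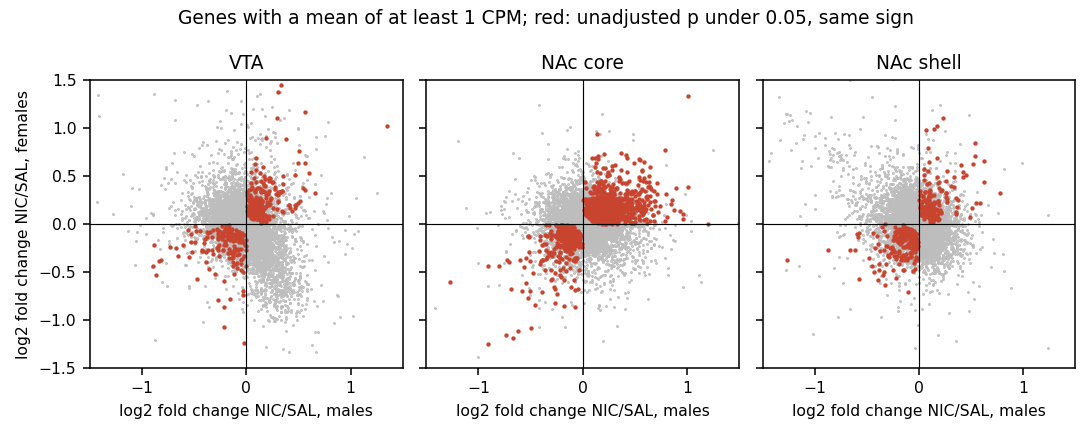
Log2 fold change of NIC over SAL in males (x axis) and females (y axis) for genes with a mean of at least 1 CPM, 1 panel per region; red points have an unadjusted p under 0.05 in the additive model and the same sign in both cohorts, and grey points are the other genes. The red points fill 2 quadrants by construction, and in VTA the grey cloud runs from upper left to lower right (genes beyond the axes are not drawn: 39 in VTA, 20 in the core and 23 in the shell).

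The treatment effect was also tested for a difference between the cohorts. At an unadjusted p under 0.05 it differed for 1825 genes in VTA (10.8%), 1478 in the core (8.76%) and 1354 in the shell (8.02%), and none passed after adjustment in edgeR, where the lowest adjusted p was 0.132, 0.528 and 0.587. With preparation batch as a covariate the counts at the unadjusted threshold were 454, 1208 and 1035, so that in VTA the count was below the nominal 5%. DESeq2 passed 1, 0 and 2 genes after adjustment. The VTA gene was Jazf1, a zinc finger cofactor of chromatin acetylation, which had the lowest p of the difference in edgeR too. Jazf1 had a log2 fold change of -0.37 in males and 0.42 in females. Its male values ran from 4.25 to 6.36 CPM in NIC and from 5.81 to 8.00 in SAL, and its female values from 5.55 to 7.90 in NIC and from 4.30 to 5.85 in SAL. All 8 female NIC rats were above the female SAL median and no male NIC rat was above the male SAL median. In NAc core, Myt1, a zinc finger transcription factor of neural and oligodendrocyte precursors, stood at 0.34 in males and -0.22 in females, and Itgb4, an integrin subunit of basement membrane adhesion, at 0.71 and -0.41. In NAc shell, Lamc1, a laminin chain of the basement membrane, stood at 0.21 and -0.28. These genes were outside the common effect, with additive log2 fold changes of 0.04, 0.07, 0.18 and -0.03. In the fit with batch they stood at 0.17, 0.09, 0.47 and 0.31, so that Lamc1 turned in direction and passed the unadjusted threshold.

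In the NAc core, Rasl10b was higher in NIC than in SAL rats of both cohorts. Rasl10b (ENSRNOG00000010302, chromosome 10) encodes a small GTPase of the Ras superfamily. In male NIC rats its level was 13.8 CPM at the lowest, 16.3 at the median and 28.6 at the highest, and in male SAL rats 4.23, 8.50 and 12.6. In female NIC rats it was 6.52, 12.5 and 27.8, and in female SAL rats 4.28, 5.83 and 7.69. All 8 male NIC rats lay above every male SAL rat, and 5 of 7 female NIC rats lay above every female SAL rat. The log2 fold change was 1.17 (SE 0.189, adjusted p = 0.0149, edgeR), with 1.02 (SE 0.262) in males and 1.34 (SE 0.277) in females, and the cohorts did not differ detectably (p of the difference 0.400).

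The adjusted p of Rasl10b stayed between 0.00386 and 0.0436 when each library was left out in turn, and the log2 fold change between 1.06 and 1.22. Without male SAL 1, whose striatal markers were low, it was 1.15 with an adjusted p of 0.0430. With library preparation batch as a covariate the log2 fold change was 1.24 (SE 0.370) and the adjusted p 0.419. Within batch C the male NIC rats had 28.6, 16.5, 19.2 and 14.7 CPM and the male SAL rats 6.32 and 11.8, and within batch J the female NIC rats had 7.75 and 27.8 and the female SAL rats 5.80 and 7.69. In VTA its log2 fold change was 0.13 (SE 0.162) and in NAc shell 0.18 (SE 0.245), and neither passed the unadjusted threshold. Adjusted for batch, these values were -0.37 and 0.86 and did not pass either. Whether the NAc core differed from the other regions was not tested.

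The other genes of the NAc core did not pass the adjustment. Of the 1330 common genes at the unadjusted threshold, 840 were higher in NIC (4.98% of genes tested) and 490 lower (2.9%). With batch in the model the balance was 719 higher (4.26%) and 682 lower (4.04%), without male SAL 1 it was 801 and 613, and with both changes 640 and 807. Among the 20 with the lowest p (10 in each direction, with a mean of at least 1 CPM), the NIC and SAL ranges overlapped in both cohorts for 19, Rasl10b being the exception. All 20 kept an unadjusted p under 0.05 whichever library was left out.

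Of the genes that were higher in NIC, Ginm1 followed Rasl10b by p among those with a mean of at least 1 CPM. Ginm1, a glycosylated membrane protein, ran from 15.0 to 19.4 CPM in male NIC (median 17.8) and from 14.7 to 16.4 in male SAL (median 15.3), and from 16.3 to 18.9 in female NIC (median 17.7) and from 14.3 to 17.4 in female SAL (median 15.0). Its log2 fold change was 0.20 (SE 0.0422, adjusted p = 0.271). Notch3, the Notch receptor of vascular mural cells, ran from 19.6 to 32.4 CPM in male NIC (median 26.2) and from 13.3 to 21.4 in male SAL (median 20.1), against 16.9 to 27.0 (median 20.6) and 16.2 to 22.2 (median 18.8) in females. The fold change on the log2 scale was 0.33 (SE 0.0797), with 0.45 in males and 0.21 in females. In males 7 of 8 NIC rats were above every SAL rat, and in females 3 of 7.

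Ch25h, the enzyme that makes 25-hydroxycholesterol, ran from 3.07 to 8.18 CPM in male NIC (median 5.05) and from 2.45 to 5.43 in male SAL (median 3.596), and from 5.21 to 9.59 in female NIC (median 6.11) and from 3.41 to 5.94 in female SAL (median 4.96). All 7 female NIC rats and 7 of 8 male NIC rats were above the SAL median of their cohort. On the log2 scale Ch25h differed by 0.51 (SE 0.123). Hyal1, a hyaluronan-degrading enzyme, had a log2 fold change of 0.62 (SE 0.149) at a mean of 1.83 CPM, the largest in size of this group after Rasl10b. Nlrp1a, an inflammasome sensor, had 0.40 (SE 0.0950), Sh3pxd2a, an adaptor of podosomes, 0.34 (SE 0.0887), Zfp36l1, which promotes mRNA decay, 0.20 (SE 0.0523), Dhtkd1, a mitochondrial enzyme of lysine breakdown, 0.17 (SE 0.0415), and Slc9a3r1, a scaffold of membrane transporters, 0.17 (SE 0.0421).

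Among the genes that were lower in NIC, Psmb10, a catalytic subunit of the immunoproteasome, had the lowest p. It ran from 30.6 to 38.0 CPM in male NIC (median 31.4) and from 31.8 to 41.4 in male SAL (median 34.8), and from 26.2 to 33.3 in female NIC (median 30.4) and from 32.1 to 39.7 in female SAL (median 36.0). In each cohort 6 NIC rats were below every SAL rat. Its log2 fold change was -0.19 (SE 0.0426, adjusted p = 0.272), with -0.16 in males and -0.23 in females. With each library left out in turn the adjusted p in edgeR ran from 0.0428, without male NIC 14 (38.0 CPM, the highest of its group), to 0.678.

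Gria2, the AMPA receptor subunit that makes the channel impermeable to calcium, ran from 271 to 368 CPM in male NIC (median 317) and from 310 to 599 in male SAL (median 355), and from 268 to 442 in female NIC (median 413) and from 356 to 521 in female SAL (median 485). Its log2 fold change was -0.27 (SE 0.0775, adjusted p = 0.532), and -0.17 with preparation batch as a covariate. The ranges overlapped in both cohorts, and no female NIC rat exceeded the female SAL median. The others were Ppidl1 at -0.29, Rpp21, a protein of ribonuclease P, at -0.18, Efcab10 at -0.49, AABR07039328.2 at -0.18, Ss18l2 at -0.15, Uevld at -0.54, Tm7sf2, a reductase of cholesterol synthesis, at -0.18 and Cfap74, a cilium protein, at -0.42. With batch in the model, 5 of the 10 lower genes no longer passed the unadjusted threshold (Gria2, Uevld, Ppidl1, AABR07039328.2 and Cfap74), and 1 of the 10 higher genes, Nlrp1a. Uevld then stood at -0.25 and Nlrp1a at 0.24, whereas Ppidl1, AABR07039328.2 and Cfap74 kept about their size, at -0.29, -0.17 and -0.43.

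**Figure D3:**
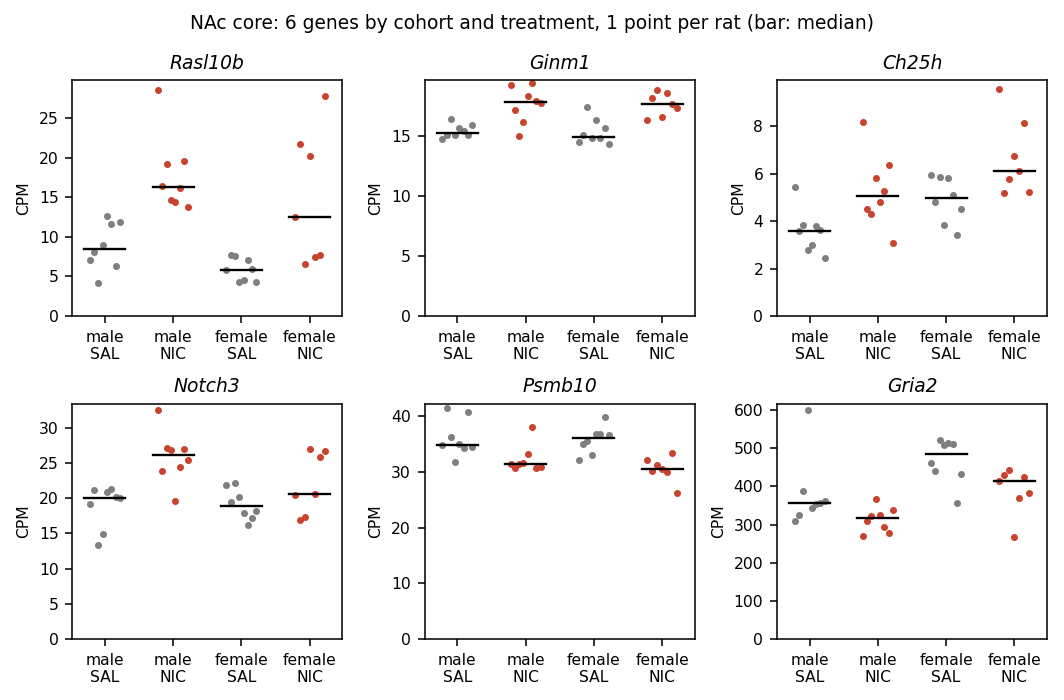
CPM (y axis, from 0) of 6 genes in the NAc core by sex and treatment (x axis), 1 point per rat, with bars at the group medians. Rasl10b separates the 8 male NIC rats from all male SAL rats, while for Ginm1, Ch25h, Notch3, Psmb10 and Gria2 the NIC and SAL points overlap in both cohorts.

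Lists of cell type markers and pathways were counted next. Gene symbols were known for 7961 of the genes tested, because they came only from the study's tables of changed genes, so the lists hold mainly members that had passed a threshold in some comparison of the study and their counts are not those of whole pathways. Of the 317 genes in the 28 lists, 181 could be tested. Since such genes were chosen for change in part on these same libraries, a share above that of all genes is built in, and the share among all tested genes with a symbol is the nearer comparison, although it is not independent either. In NAc core, 21 of them were higher in NIC (11.6%, against 8.55% of genes with a symbol and 4.98% of all genes) and 4 lower (2.21%, against 4.43% and 2.9%). In VTA, 8 were higher (4.42%, against 3.15% and 2.08%) and 4 lower (2.21%, against 1.73% and 1.32%), and in NAc shell 4 were higher (2.21%, against 2% and 1.34%) and 5 lower (2.76%, against 2.39% and 1.58%).

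Of the markers of blood vessels and their coverings in the NAc core, some passed the unadjusted threshold, all of them higher in NIC, and none passed the adjustment. Of 7 endothelial genes tested, 4 passed: Kdr, the main receptor for vascular endothelial growth factor, at 0.21 (SE 0.0721), the angiopoietin receptor Tek at 0.20 (SE 0.0654), the transporter Slco1a4 at 0.16 (SE 0.0556) and Vwf at 0.14 (SE 0.0657). Of 5 mural genes, which mark pericytes and smooth muscle, 3 passed: Rgs5 at 0.20 (SE 0.0869), Pdgfrb at 0.17 (SE 0.0662) and Vtn at 0.14 (SE 0.0708). Of 10 meningeal fibroblast genes, 5 passed: the collagen genes Col1a2 at 0.40 (SE 0.164), Col3a1 at 0.36 (SE 0.172) and Col1a1 at 0.36 (SE 0.158), the transcription factor Foxc1 at 0.31 (SE 0.107) and Lum at 0.25 (SE 0.122). None of the 3 lists had a member that was lower and passed. The median log2 fold change was 0.137, 0.187 and 0.338, against -0.0012 over all genes tested.

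The collagen values were larger in males, although the difference between cohorts did not pass the threshold. Col1a2 ran from 76.3 to 223 CPM in male NIC (median 121) and from 48.4 to 105 in male SAL (median 89.3), and from 48.0 to 88.5 in female NIC (median 75.3) and from 28.2 to 99.9 in female SAL (median 71.7). On the log2 scale Col1a2 differed by 0.67 in males and 0.10 in females, and the p of that difference was 0.0789. In males 6 NIC rats were above every SAL rat, and in females none was. Tek, by contrast, stood at 0.19 in males and 0.21 in females.

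These counts moved with single libraries. The meningeal marker sum was 479 to 1379 CPM in male NIC, 327 to 740 in male SAL, 309 to 611 in female NIC and 208 to 666 in female SAL, and the highest value was that of male NIC 9. Without male NIC 9 the meningeal count was 2 of 10, the mural count 2 of 5 and the endothelial count 3 of 7. Without male SAL 1, whose striatal markers were low, they were 3, 2 and 4. With any 1 library left out the meningeal count ran from 2 to 10, the mural count from 1 to 3 and the endothelial count from 3 to 4. With preparation batch as a covariate 1, 2 and 3 passed, and with the rat as a block across regions 0, 1 and 2. Without male NIC 9 the medians were 0.263, 0.14 and 0.105, and without male SAL 1 they were 0.332, 0.159 and 0.154. In the fits with batch and with the block they were about as large as in the main fit or larger. From 0.338, 0.187 and 0.137 they went to 0.471, 0.223 and 0.226 with batch, where all members were above 0 but only 2 of 10, 4 of 5 and 5 of 7 had the same sign in both cohorts, and to 0.346, 0.213 and 0.135 with the block. The part that vessel and meningeal content had in the other NAc core values was not tested. In the VTA the same lists had medians of -0.118, -0.168 and -0.191, but only 2 of 7, 1 of 5 and 0 of 10 members had the same sign in both cohorts, and with preparation batch as a covariate the medians were -0.03, 0.00845 and 0.00575. The members that passed there were Tek at -0.17 (SE 0.0739) and the tight junction gene Cldn5 at -0.12 (SE 0.0578) lower in NIC, which stood at -0.08 and -0.07 with batch in the model.

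**Figure D4:**
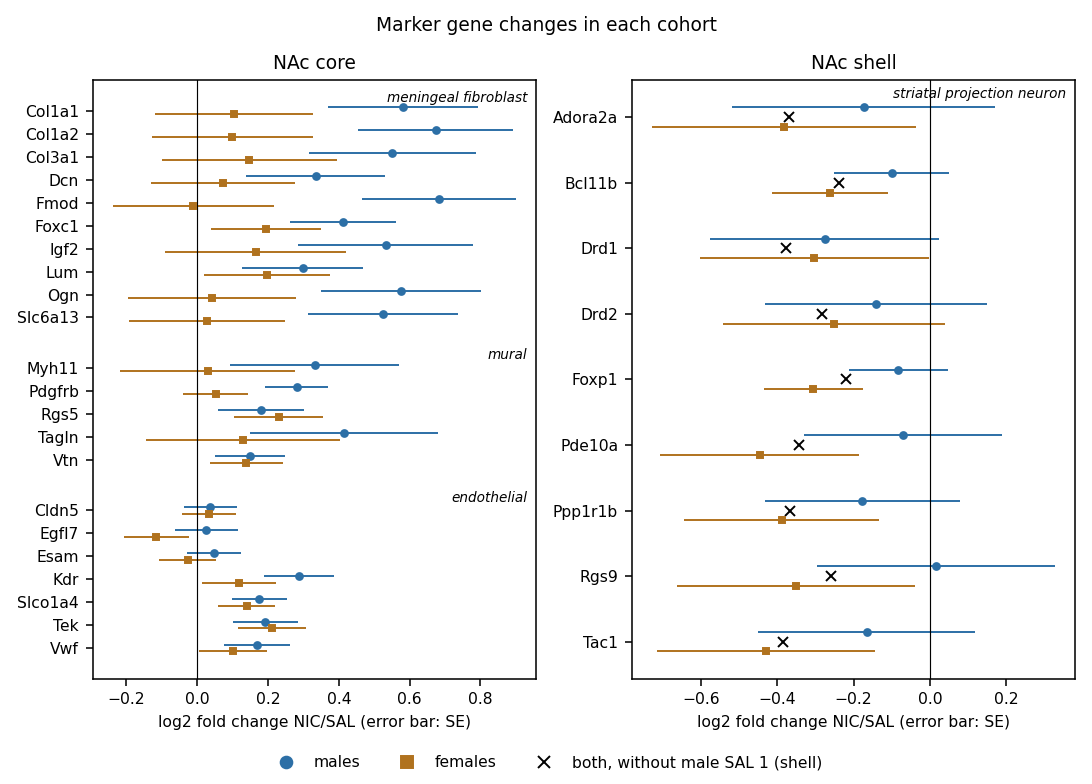
Log2 fold change of NIC over SAL (x axis, error bars SE) in males (circles) and females (squares) for the tested endothelial, mural and meningeal fibroblast markers in NAc core (left) and the striatal projection neuron markers in NAc shell (right), where crosses give the additive value without male SAL 1. Left, most points lie above 0, with male values above female ones for the collagens; right, all 9 crosses lie below 0.

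Other list members in the NAc core were single genes. Of 10 oligodendrocyte genes 2 were higher, Mobp at 0.14 and Mal at 0.12 (myelin). Of 6 astrocyte genes 1 was higher, Gfap at 0.12 (astrocyte filament), and of 7 microglial genes 1, Cx3cr1 at 0.23 (fractalkine receptor). The medians of these lists were 0.0673, 0.0282 and 0.0815, with 10 of 10, 3 of 6 and 7 of 7 members above 0. None of the 4 passed with batch in the model, where Mobp stood at 0.14, Gfap at 0.17, Cx3cr1 at 0.22 and Mal at 0.05. Gfap passed in 15 of 31 fits with a library left out. Of 12 ionotropic glutamate receptor genes 2 were lower, Gria2 and Grin2b, an NMDA receptor subunit, at -0.18, and the latter was at 0.01 with preparation batch as a covariate. Of 8 GABA-A receptor genes 1 was lower, Gabrd at -0.11, which passed in 17 of 31 such fits, and of 13 genes of synaptic vesicle release 1 was higher, Cplx2, a complexin, at 0.27. Of 16 Ras-like GTPases and their regulators 2 were higher, Rasl10b among them. Of 5 adenylate kinases Ak4 was higher at 0.51, and of 6 glucocorticoid-responsive genes Plin4 at 0.34. Of 6 hypothalamic neuron markers 1 was lower, Hcrt, the orexin precursor, at -1.15, in a list whose summed level was at most 18.4 CPM there. Neither Plin4 nor Hcrt passed with batch in the model. Of all 25 list members that passed in the NAc core, 11 passed with batch in the model, and with the rat as a block across regions the oligodendrocyte, astrocyte, GABA-A and synaptic vesicle lists had 0 members that passed. In that fit Mobp stood at 0.15, Mal at 0.12, Gfap at 0.13, Gabrd at -0.10 and Cplx2 at 0.26.

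In the VTA, 351 genes were higher in NIC (2.08% of genes tested) and 223 lower (1.32%) in both cohorts at the unadjusted threshold, and the lowest adjusted p was 0.99. Zc3h8, a zinc finger protein of small nuclear RNA transcription, had the lowest p of the genes that were higher. It ran from 16.3 to 20.0 CPM in male NIC (median 17.4) and from 15.3 to 17.4 in male SAL (median 16.3), and from 16.6 to 21.5 in female NIC (median 20.0) and from 14.7 to 19.0 in female SAL (median 15.6). All 8 female NIC rats and 7 of 8 male NIC rats were above their cohort's SAL median, and the ranges overlapped in both cohorts. Its log2 fold change was 0.19 (SE 0.0457). Actr6, a subunit of a chromatin remodelling complex, had 0.14, Sap30, of the Sin3 histone deacetylase complex, 0.28, Tusc3, of the oligosaccharyltransferase, 0.17, Nup88, a nucleoporin, 0.15, and Hacd3, of fatty acid elongation, 0.09. Tmem130 had 0.18, Tspyl2 0.17 and Sdad1 0.22. With preparation batch as a covariate Sap30 stood at 0.03, and Actr6, Hacd3, Tmem130 and Sdad1, at 0.10, 0.07, 0.14 and 0.18, also missed the unadjusted threshold.

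Pomc, the precursor of melanocortins and beta-endorphin, had a log2 fold change of 1.18 (SE 0.348) in the VTA, the only value over 2-fold among the 20 genes with the lowest p there. In male NIC it ran from 2.38 to 17.9 CPM (median 4.92) and in male SAL from 2.60 to 3.85 (median 2.96), while in female NIC it ran from 1.41 to 26.4 (median 3.00) and in female SAL from 1.64 to 3.49 (median 2.98). The female medians were thus level, and the female difference rested on female NIC 4 at 26.4 CPM, since the other female NIC rats ran from 1.41 to 3.89. Of 6 hypothalamic neuron markers, 3 were higher in NIC: Pomc, Pmch, the precursor of melanin-concentrating hormone, at 2.25 (SE 0.720), and Hcrt at 2.08 (SE 0.715). Pmch reached 193 CPM in female NIC 7, whereas its female NIC median was 2.38 and its female SAL median 2.15, and Hcrt reached 11.6 CPM in a group with a median of 0.321. The summed hypothalamic markers stood at 222 CPM in female NIC 7, against 7.52 to 38.5 in the other VTA libraries. Without female NIC 7, Pmch fell to 0.80 and Hcrt to 1.00 on the log2 scale, and without female NIC 4 Pomc fell to 0.70. These values were thus set in large part by single libraries, and the part of hypothalamic RNA in the other VTA values was not tested.

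Among the genes that were lower in NIC in the VTA were Card10, a scaffold of NF-kappaB signalling, at -0.41 (SE 0.122), Shisa3 at -0.52 (SE 0.175), Sox18, an endothelial transcription factor, at -0.24 (SE 0.0784), Vamp7, a SNARE protein of vesicle fusion, at -0.23 (SE 0.0732), Tshz1 at -0.22, Rapgef4, a cAMP-activated exchange factor of Rap GTPases, at -0.20, and Tcf3, a basic helix-loop-helix transcription factor, at -0.13. Card10 ran from 4.44 to 7.81 CPM in male NIC (median 5.66) and from 5.63 to 12.0 in male SAL (median 6.10), and from 3.06 to 6.37 in female NIC (median 4.84) and from 4.35 to 9.11 in female SAL (median 6.75). No female NIC rat was above the female SAL median, and 3 of 8 male NIC rats were above the male one. Necap2 at -0.10, Zbtb39 at -0.12 and Wbp1l at -0.11 completed the 10 with the lowest p. With batch in the model 7 of these 10 missed the unadjusted threshold, among them Card10 at -0.30, Sox18 at -0.20, Tcf3 at -0.08, Tshz1 at -0.11 and Rapgef4 at -0.10, and also Necap2 and Wbp1l, both at -0.12.

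Of the other lists in the VTA, 1 of 6 astrocyte genes was lower, Gfap at -0.26, and 1 of 6 glucocorticoid-responsive genes, Zbtb16 at -0.35. In each of 5 lists 1 member was higher. These were Gabre of 8 GABA-A receptor genes at 0.35, Rerg of 16 Ras-like genes at 0.30 and Rgs9 of 9 striatal markers at 0.33. The others were Ak7 of 5 adenylate kinases at 0.85 and Prlr of 7 choroid plexus markers at 1.01. In the same order, 7 of 8, 10 of 16, 5 of 9, 2 of 5 and 6 of 7 members were above 0. Without female NIC 2, in which choroid plexus markers were high, Prlr was at 0.64, Ak7 at 0.57 and Rerg at 0.14, and none of them passed the threshold. Cldn5, Rgs9 and Zbtb16 also missed it without that library, at -0.10, 0.31 and -0.34. With batch in the model 4 of the 12 list members that passed in the VTA did so again (Ak7, Gabre, Pmch and Pomc). Of the others, Hcrt then stood at 2.46, Rgs9 at 0.56, Zbtb16 at -0.43 and Gfap at -0.26, while Rerg at 0.08 and Prlr at 0.49 were smaller than without batch, as were Tek and Cldn5. None of the 8 dopaminergic neuron markers passed in the main fit (median -0.0777). With batch in the model 1 of 8 was lower and passed (median -0.309), beside 1.15% of all genes tested that were lower.

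In the NAc shell, 226 genes were higher (1.34% of genes tested) and 266 lower (1.58%) in NIC in both cohorts, and the lowest adjusted p was 1. Cbln1, a synaptic organizer of the C1q family, ran from 4.76 to 14.2 CPM in male NIC (median 7.02) and from 2.83 to 10.4 in male SAL (median 3.68), and from 4.02 to 15.4 in female NIC (median 8.32) and from 3.09 to 6.06 in female SAL (median 4.45). All 8 male NIC rats were above the male SAL median, and 6 of 8 female NIC rats were above every female SAL rat. The additive log2 fold change of Cbln1 was 0.69 (SE 0.199).

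Crh, corticotropin-releasing hormone, ran from 2.49 to 4.87 CPM in male NIC (median 3.59) and from 1.28 to 4.98 in male SAL (median 2.32), and from 2.09 to 5.96 in female NIC (median 3.94) and from 2.12 to 3.74 in female SAL (median 2.81). Of the NIC rats, 8 of 8 males and 7 of 8 females were above their cohort's SAL median, while the ranges overlapped in both. That of Crh was 0.48 on the log2 scale (SE 0.145). Slc17a6, a vesicular glutamate transporter that is scarce in striatal neurons, was at 0.57 (SE 0.182), with 0.14 in males and 0.99 in females, and Cdnf, a neurotrophic factor of dopamine neurons, at 0.51 (SE 0.163). Lypla1, a depalmitoylating enzyme, stood at 0.16, Tfg, of the early secretory pathway, at 0.14 and Atad1, an ATPase that extracts membrane proteins, at 0.09, beside LOC103691556 at 0.29 and AABR07024439.1 at 0.27.

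The genes that were lower in NIC in the NAc shell were led by Snupn, which imports small nuclear ribonucleoproteins into the nucleus, at -0.19 (SE 0.0520). It ran from 13.2 to 17.8 CPM in male NIC (median 15.4) and from 15.9 to 21.6 in male SAL (median 18.1), and from 13.8 to 18.4 in female NIC (median 15.5) and from 15.5 to 19.6 in female SAL (median 17.6). No male NIC rat and 1 female NIC rat were above their cohort's SAL median. Ifi35, an interferon-induced protein, was at -0.29 (SE 0.0827), Ccdc18 at -0.32, Ptrhd1 at -0.26, Stn1, which protects telomeres, at -0.18, Dgki, a diacylglycerol kinase, at -0.18, and LOC108348151 at -0.58. Lonp1, the mitochondrial matrix protease, at -0.09, Mettl17, of the mitochondrial ribosome, at -0.17 and Atpaf2, an assembly factor of the ATP synthase, at -0.14 completed the 10 with the lowest p. When batch was in the model, Ccdc18 stood at -0.01, Dgki at -0.02, Mettl17 at -0.06, Lypla1 at 0.05, Tfg at 0.05 and Slc17a6 at 0.27, and none of these passed the unadjusted threshold. Cdnf, Atad1, Ifi35, LOC108348151 and Lonp1 also missed it, at 0.37, 0.08, -0.33, -0.45 and -0.10, so that 5 of the higher and 6 of the lower genes lost the call.

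Striatal projection neuron markers in the NAc shell depended on a single library. With all 32 libraries, 1 of 9 was lower in NIC, the transcription factor Foxp1 at -0.19 (SE 0.0922), and the list median was -0.258. Without male SAL 1, 8 of 9 were lower and none higher, with a median of -0.342, while the number of common genes rose from 492 to 913 over the transcriptome, so that 496 genes were lower in all. The dopamine receptor Drd1 ran from 51.6 to 115 CPM in male NIC (median 68.4), and from 62.0 to 102 in female NIC (median 81.7) against 72.9 to 124 in female SAL (median 103). In male SAL it was 5.15 in rat 1 and at most 141 in the others (group median 95.5). Its log2 fold change was -0.29 (SE 0.208) with male SAL 1 and -0.38 without it (unadjusted p = 0.00196, adjusted p = 0.812). Likewise Tac1, the substance P precursor, was at -0.30 with and -0.39 without that library, and Ppp1r1b, the phosphoprotein DARPP-32 of the dopamine response, at -0.28 and -0.37.

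No marker passed the adjustment in the NAc shell under either choice, and the part of striatal neuron content in the other NAc shell values was not tested. Removing male SAL 1 raised the male SAL values, since its striatal markers were the lowest of all, and was decided from those same markers. With preparation batch as a covariate the list median was -0.498 and 1 of 9 passed, beside 795 of all 16879 genes tested that were lower in that fit. With both changes the list median was -0.507 and 8 passed, beside 1028 of 16879 that were lower. With the rat as a block across regions it was -0.154 and 0 passed. In the NAc core the same list had a median of -0.0361 with male SAL 1 and -0.129 without it, and 0 of 9 passed under either.

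Other lists in the NAc shell gave few genes. Of 4 tested nicotinic receptor subunits, the direct targets of nicotine, Chrna3 was higher at 0.48 (SE 0.227), from a mean of 1.08 CPM, and passed in 17 of 32 fits with a library left out. With batch in the model it stood at 0.88 and with the rat as a block at 0.61, and it passed in neither. In VTA and NAc core 0 of 4 passed in the main fit. With batch in the model 1 of 4 was lower and passed in the NAc core (median -0.356), beside 4.04% of all genes tested, and 0 passed in VTA. Of 8 GABA-A receptor genes, Gabrd and Gabra4 were lower at -0.21 and -0.17. Of 9 circadian clock genes 2 were lower, the clock output factors Dbp at -0.11 and Tef at -0.09, and 0 passed in VTA and NAc core. Adjusted for batch, Dbp and Tef stood at -0.06 and -0.05 and did not pass, and 4 of 9 clock genes were higher in the NAc core, 1 in the NAc shell and 1 in VTA, with medians of 0.298, 0.157 and 0.118, beside which 4.26%, 4.9% and 1.96% of all genes tested were higher in that fit. The count of 2 stood beside 1.58% of all genes tested that were lower in the shell. Gem, a Ras-like GTPase, was higher at 0.26, and stood at 0.13 with batch in the model. Of 10 genes of dopamine synthesis, transport and reception, 4 immediate early genes and 6 heat shock genes, 0 passed in any region with all libraries. Without male SAL 1, 5 of 10 dopamine genes were lower in the NAc shell (median -0.28), Drd1, Drd2 and Ppp1r1b of the striatal list among them. Of 16 Ras-like genes 3 were then lower and 1 higher, and 1 of 4 immediate early genes was higher. Over all 16879 genes tested, 496 were lower and 417 higher in that fit. In the fit with batch, 1 dopamine gene and 1 heat shock gene were lower in the NAc shell and 2 heat shock genes in the core, beside 4.71% and 4.04% of all genes tested.

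The common genes of the 3 regions were set side by side. Of those of the VTA and the NAc core, 36 were shared (6.27% and 2.71% of each list), 13 with the same sign and 23 with opposite signs. The VTA and the NAc shell shared 15 (2.61% and 3.05%), 7 with the same sign. The NAc core and NAc shell shared 32 (2.41% and 6.5%), 25 with the same sign and 7 opposite. These shares lie near or below those over all genes tested, of which 7.88% were common in the NAc core and 2.91% in the NAc shell. The regions came from the same rats, so that these overlaps were not between independent samples and were not tested.

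Irf7 was the single gene past the unadjusted threshold in all 3 regions with the same sign in both cohorts and in every region, and it was picked out after its values were seen. Irf7 was 1 of 2 genes that were common in all 3 regions, out of 16879 tested, of which 3.4%, 7.88% and 2.91% were common in VTA, core and shell. It encodes an interferon regulatory factor (chromosome 1) that drives type I interferon production. In VTA it ran from 5.39 to 11.2 CPM in male NIC (median 7.23) and from 6.12 to 10.3 in male SAL (median 9.21), and from 3.04 to 8.34 in female NIC (median 5.75) and from 4.98 to 10.3 in female SAL (median 7.72). In NAc core the medians were 4.44 and 5.52 in male NIC and SAL and 4.54 and 5.06 in female NIC and SAL, and in NAc shell 4.36 and 6.28 and 4.62 and 4.96. Every NIC median was below its SAL median, and the ranges overlapped in all 6 pairs. The log2 fold change was -0.29 (SE 0.130) in VTA, -0.32 (SE 0.140) in the core and -0.26 (SE 0.128) in the shell, and the adjusted p in edgeR was 0.990, 0.564 and 1. The two-sided permutation test of log2 CPM within cohorts gave p = 0.0273, 0.0522 and 0.0365 without adjustment. Since the gene was picked from these same libraries, neither its medians nor this test is separate support. The unadjusted p in edgeR stayed under 0.05 in 26 of 31, 27 of 31 and 13 of 32 fits with a library left out. Without the 1 library per region whose markers went against its label, Irf7 stood at -0.25, -0.30 and -0.25 and passed the unadjusted threshold in the NAc core alone. With preparation batch as a covariate it stood at -0.06, -0.59 and -0.17.

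**Figure D5:**
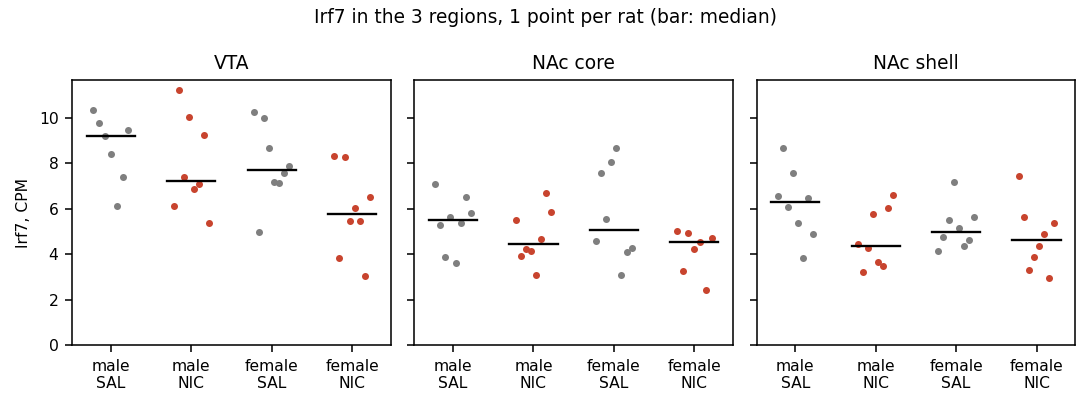
CPM of Irf7 (y axis, from 0) by sex and treatment (x axis) in VTA, NAc core and NAc shell, 1 point per rat and region, with bars at the group medians. In each of the 6 pairs the NIC median is below the SAL median and the points overlap.

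When the effect was averaged over the 3 regions, with the rat as a random block (limma), 461 genes had an unadjusted p under 0.05 (2.73%), 417 of them with the same sign in both cohorts (2.47%), of which 188 were higher (1.11%) and 229 lower (1.36%) in NIC. The average had the same sign in both cohorts for 36.9% of all genes, and 0 genes passed the adjustment (0%). With batch in the model 1693 genes were common at the unadjusted threshold and 1 passed the adjustment, ENSRNOG00000008329, named after its value was seen, at -0.21 (SE 0.0408, adjusted p = 0.0300) against -0.02 without batch. Dhtkd1 had the lowest p, with a mean log2 fold change of 0.10 (SE 0.0240, adjusted p = 0.605) and 0.13 in males and 0.07 in females. Next with the same sign in both cohorts were Zfp608 at 0.13, AC134224.3 at -0.56 and Rasl10b at 0.48 (SE 0.134), the last highest in the NAc core. In the fits with batch AC134224.3 turned to 0.23 in VTA, 0.10 in the core and 0.34 in the shell, from -0.22, -0.78 and -0.38, and without male SAL 1 it stood at -0.07 in the shell. AABR07015081.2, at -1.11, had opposite signs in males and females. Irf7 averaged -0.29 (SE 0.0839, adjusted p = 1.00), with -0.25 in males and -0.34 in females.

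Preparation batch could be set against treatment in few libraries. Each region held 10 batches, and batches that contained both treatments of a cohort covered 11 of 31 libraries in VTA, 10 of 31 in NAc core and 9 of 32 in NAc shell, so that in the others batch and treatment cannot be told apart within a cohort. With batch as a covariate, 525, 1401 and 1622 genes were common at the unadjusted threshold and 0 passed the adjustment in any region. The share of genes with the same sign in both cohorts was then 51.5%, 51.3% and 53.5%, against 42.1%, 48.5% and 42.8% without it. The common count of the NAc shell and the share of equal signs in VTA and NAc shell thus changed with batch in the model.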

How the data were processed

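RNA-seq libraries of the SST experiment from VTA, NAc core and NAc shell were used. The authors trimmed reads with fastp 0.20.0 and quantified them on Rnor version 6 with Salmon 0.12.0 (versions from the submitters' processing notes), collapsed them to genes, and deposited estimated counts per gene as whole numbers, without normalization. Of 17637 genes, 16879 had a count over 10 in at least 3 libraries and were tested, and 0 columns lacked a sample. Gene symbols came only from the study's tables of changed genes, which also hold its own fold changes and p-values, not used here.

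NIC was compared with SAL by edgeR 4.0.16 (TMM, quasi-likelihood, box as covariate) in R 4.3.3 within each region, after the scripts were tested on simulated data. Both cohorts' own effects and their difference came from a fit of 4 groups. The average over regions used limma 3.58.1 with the rat as block, since the labels tie 3 libraries to each of 30 rats (consensus correlation 0.0889). CPM used TMM-scaled library sizes. P-values are two-sided and measure the spread between rats. The comparison, the 28 lists and the tests were chosen with earlier results of these data known. Named were genes past the adjusted threshold, the 10 lowest p in each direction at a mean of at least 1 CPM, list members at an unadjusted p under 0.05 with equal signs, and the 5 lowest p of the difference and of the average. Irf7, Llph and the genes named by DESeq2 or by a refit alone were chosen after their values were seen. Alternatives were DESeq2 1.42.0 and its size factors, other count filters, no box term, equal weight of the boxes, preparation batch, the rat as block, all mapped libraries and each library left out. Leaving out the library whose markers went against its label, alone or with batch, and male NIC 9 in the NAc core list counts, was chosen after seeing the data. A few genes that the naming rule picked are not reported here.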

Additional observations from a re-analysis of the deposited data

Results flagged for a closer look

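In 268 groups of 7 or 8 rats (59 genes with the lowest p and the marker sums), 20 values stood apart from the rest of their group by Dixon's criterion, which chance meets in about 1 in 20 groups, or 13 here. In the VTA they were Pomc in female NIC 4 (26.4 CPM, the others 1.41 to 3.89) and female SAL 10 (1.64, against 2.49 to 3.49), Sap30 in male SAL 4 (2.59, against 3.63 to 4.34) and Necap2 in female SAL 13 (61.6, against 69.9 to 77.2). The female difference of Pomc rested on the NIC 4 value.

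In the NAc core they were Nlrp1a in male NIC 15 (5.31 CPM), Hyal1 in male NIC 9 (4.12, against 1.5 to 2.35), Slc9a3r1 in male NIC 11 (42.2), Psmb10 in male NIC 14 (38.0, against 30.6 to 33.2), Rpp21 in male SAL 4 (19.7), AABR07039328.2 in male NIC 9 (22.7) and Uevld in male NIC 11 (4.96). Gria2 stood apart in female NIC 5 (268 CPM, against 370 to 442) and male SAL 4 (599, against 310 to 388). Both Gria2 values lay in the direction of its difference between NIC and SAL.

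In the NAc shell they were Slc17a6 in male SAL 1 (3.52 CPM, against 6.68 to 9.99) and Ptrhd1 in female SAL 15 (6.99, against 8.64 to 10.4). Marker sums stood apart for dopaminergic neurons (135 CPM) and choroid plexus (2711) in VTA female NIC 2, for choroid plexus in VTA female SAL 16 (928), for hypothalamic neurons in VTA female NIC 7 (222) and for striatal projection neurons in NAc shell male SAL 1 (307).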

How the results depend on the processing

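With each library left out, common genes at an unadjusted p under 0.05 ran from 452 to 859 in VTA (859 without male NIC 11), 1021 to 1599 in NAc core and 405 to 913 in NAc shell (913 without male SAL 1). After adjustment they ran from 0 to 0, 1 to 3 and 0 to 0. Genes differing between cohorts ran from 1430 to 2288, 1045 to 1753 and 1027 to 1771, with 0 after adjustment. DESeq2 passed 2 common VTA genes after adjustment, and 1 VTA and 2 NAc shell genes for the difference. With preparation batch the VTA difference fell to 454 genes, the NAc core kept 0 adjusted genes, the NAc shell had 1622, and the average had 1693 and, adjusted, 1. Without the library whose markers went against its label the NAc shell had 913, and with batch as well the shell had 1863, the VTA difference 479, the NAc core 0 adjusted and its difference 1. Grin2b in NAc core reversed to 0.0144 with batch and to 0.0024 with both. With the rat as replicate block, 704, 1031 and 600 genes were common and 0, 1 and 0 adjusted, with 50.6% of the VTA and 52.5% of the NAc core genes higher in NIC, against 61.1% and 63.2% without it. The average without the replicate block had 632. The cause of these shifts was not tested. For 105 values the hold under other settings was counted. They were the log2 fold changes of genes named by low p or as list members and, per region, the count of genes with equal signs. A fold change held if it stayed past the unadjusted threshold in the same direction, and a count if it stayed near its main value. Of the 105, 101 held under DESeq2's size factors, 103 under DESeq2, 74 under the block and 48 with batch, where few libraries set treatments side by side. In a typical gene, changes of less than about 0.13 to 0.14 (log2) would not pass the unadjusted threshold, and the limit after adjustment was higher.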

Other observations

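Llph, a nucleolar protein gene picked out after its values were seen, was at 0 in many libraries, so that its fitted change cannot be read as a fold change. It had counts of 9 to 39 in all 7 female NIC libraries of the NAc core and 24 to 33 in 4 of 8 male NIC libraries. It was at 0 in 7 of 8 SAL libraries of each cohort, with a count of 9 in the remaining male and 12 in the remaining female. Its adjusted p was 0.113 in edgeR, the next after Rasl10b, and 0.00949 without male SAL 5, the library with the count of 9. In VTA, Llph was above 0 in 5 of 8 male NIC and 4 of 7 male SAL libraries and in 6 of 8 female NIC and 1 of 8 female SAL libraries. In NAc shell it was above 0 in 1 of 8 male NIC and 6 of 8 male SAL libraries and in 4 and 3 of 8 in females, so its pattern differed from region to region.

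ENSRNOG00000008648, the other gene besides Irf7 past the unadjusted threshold in all 3 regions, had fitted log2 fold changes of 2.85 in VTA, 5.98 in the core and -5.65 in the shell, with opposite signs between regions.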
